A study of Mus musculus with 20 samples.

Results

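The oligoadenylate synthetase (OAS) family of the mouse was followed in the distal colon (DC) through 7 genes, Oas1a, Oas1b, Oas1g, Oas2, Oas3, Oasl1 and Oasl2. They were taken as the rows of the DC count table whose Ensembl identifier carries those symbols in the GENCODE annotation. All 7 were in the table of 26619 genes, and all 7 were among the 17893 genes that passed the filter on low counts. The mice were C57BL/6 animals that were placed at weaning on the Total Western Diet (TWD), a diet whose nutrients follow what people in the United States eat. After 6 weeks, a group of mice stayed on the TWD alone (0% RPS). The other 3 groups were switched to the TWD with 2, 5 or 10% resistant potato starch (RPS). This starch escapes digestion and is fermented in the large bowel. The labels name it raw potato starch. The diets were fed for a further 3 weeks, after which libraries of polyadenylated RNA were made from the DC. The authors describe larger groups of mice, so the libraries used here need not cover every animal fed. These libraries came from 20 mice, 5 for each diet. All 4 groups therefore shared the strain and the TWD, and the comparison of interest was how the RNA level of each family member differed between each RPS level and the TWD alone.

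OAS enzymes bind double-stranded RNA, such as that made during viral infection, and join ATP into short chains of adenylate with unusual 2'-5' links, called 2-5A. These chains act as a messenger of the antiviral response inside the cell. Oas1a, Oas1g, Oas2 and Oas3 are regarded as synthetases of this kind, whereas Oas1b of C57BL/6 mice carries a premature stop codon, a change known for its link to flavivirus susceptibility. The OAS-like proteins carry ubiquitin-like domains. Oasl1 is known as a translational repressor of Irf7, and Oasl2 can make 2-5A. Interferons induce the genes of the family through a complex that holds Stat2 and Irf9 and binds the interferon-stimulated response element (ISRE) in promoters.

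Library totals ran from 18.4 to 35.0 megacounts and were 32.8 ± 1.35 megacounts in controls and 24.3 ± 3.42 megacounts under 10% RPS (SD, n = 5 each), so depth and diet cannot be told apart by group means alone. Levels are given in CPM, the counts per megacount of the scaled library size. The labelled tissue was checked against markers. The 6 colon epithelium markers summed to between 7378 and 12098 CPM over the mice, the 4 Hox genes of the posterior gut to between 521 and 900 CPM, and the 5 markers of squamous epithelium to at most 7.84 CPM. The 7 pancreas markers summed to 4575 CPM in mouse RS10_721 (5% RPS) and 409 CPM in mouse RS10_784 (10% RPS), and to at most 12.1 CPM in the other libraries. The description, used here, and the treatment label disagree on the RPS level of 3 mice, RS10_748 (2% RPS), RS10_717 (5% RPS) and RS10_725 (10% RPS).

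All 7 members lie on chromosome 5 of GRCm39, in 2 neighbourhoods. Oasl2 (115034997 to 115050295, plus strand) and Oasl1 (115061294 to 115075974, plus strand) lie next to each other. The others lie together in the order Oas2 (120868398 to 120887933, minus strand), Oas3 (120891163 to 120915729, minus strand), Oas1b (120950700 to 120962228, plus strand), Oas1g (121014205 to 121025676, minus strand) and Oas1a (121031070 to 121046449, minus strand). Oas1a lies inside the span of Oas1d on the opposite strand without sharing exonic bases. The canonical transcript of Oas3 has 16 exons, 4723 bases and a coding region of 1138 codons, against 7 exons and 367 codons for Oas1a and for Oas1g. In the reference genome the coding region of Oas1b meets an in-frame stop after 252 codons, and its canonical transcript is annotated as a loss of function form.

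The promoters are shown because interferon reaches these genes through the ISRE, and because the members differ in whether a match to its letters was found. The motif GAAANNGAAA was searched on both strands from 250 bases before to 50 bases after the start of the canonical transcript. It was found in 835 of 21770 protein-coding promoters (3.84%) and in 5 of the 7 members. The windows of 30 bases around the match, read 5' to 3' on the strand of the gene from GRCm39 with the match in capitals, were as follows.

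Oas1a: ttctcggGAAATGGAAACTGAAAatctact

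Oas1g: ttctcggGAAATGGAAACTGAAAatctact

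Oas1b: ttcccggGAAATGGAAACTGAAAgtcccat

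Oas2: cacacttgagTTTCGATTTCctaggttcct

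Oas3: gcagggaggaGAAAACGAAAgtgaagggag

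The windows of Oas1a (chr5:121045586-121045615, minus strand) and Oas1g (chr5:121025672-121025701, minus strand) were identical, and Oas1b (chr5:120950671-120950700, plus strand) shared the same run of capitals, which holds 2 overlapping matches. In Oas2 (chr5:120887970-120887999, minus strand) the match lies on the opposite strand. Oas3 (chr5:120915780-120915809, minus strand) holds 1 match, from base -70 to base -61 relative to the start. In Oas1a the matches lie just inside the first exon, from base 3 to base 18 of the canonical transcript, and in the other 4 members they lie before the start.

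Oasl1 and Oasl2 held no match to the motif in this window. The 150 bases before the start of Oas3 and of Oasl2, the 2 members with the largest differences between diets, are given to compare a promoter with and without the ISRE letters. Capitals mark the ISRE match.

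Oas3: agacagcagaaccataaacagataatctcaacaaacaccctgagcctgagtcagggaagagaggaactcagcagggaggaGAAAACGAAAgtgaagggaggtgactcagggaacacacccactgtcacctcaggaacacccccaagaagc

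Oasl2: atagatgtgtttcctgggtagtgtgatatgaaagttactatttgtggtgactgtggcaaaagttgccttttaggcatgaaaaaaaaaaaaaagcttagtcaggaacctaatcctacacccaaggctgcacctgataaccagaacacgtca

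These stretches are chr5:120915730-120915879 (minus strand) and chr5:115034847-115034996 (plus strand) of GRCm39. A match says only that the letters are present, and a missing match only that this motif was not found in this window. Variant or more distant elements were not searched for.

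Oas1a was the most abundant member and Oas3 the least abundant. To compare genes, CPM was divided by the length of the canonical transcript in kilobases. On that scale the mean level over all 20 mice was 21.3 ± 1.67 CPM per kb for Oas1a, 18.9 ± 3.28 for Oas1g, 12.2 ± 2.01 for Oasl1, 6.99 ± 2.49 for Oasl2, 3.56 ± 0.589 for Oas1b, 1.05 ± 0.443 for Oas2 and 0.644 ± 0.447 for Oas3 (SD, n = 20). Neighbours in this order kept it in most mice. Oas1a exceeded Oas1g in 17 of 20 mice, Oas1g exceeded Oasl1 in 19, Oasl1 exceeded Oasl2 in 18, and Oasl2 exceeded Oas1b and Oas1b exceeded Oas2 in all 20. Oas2 exceeded Oas3 in all 5 mice at 0% RPS but in 3 of 5 mice at 10% RPS. Oas1a and Oas1g lie within each other's spread, and their split is the least certain, as set out with their values.

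Oas2 and Oas3, the rarest members per length, were also the most variable between mice. The coefficient of variation of CPM over the 20 mice was 69.5% for Oas3, 42.3% for Oas2 and 35.6% for Oasl2, against 7.86% for Oas1a and between 16.5 and 17.3% for Oas1b, Oas1g and Oasl1. The median over the 15232 genes averaging 1 CPM or more was 13.8%. Counts per library ran from 23 to 205 for Oas3 and from 672 to 1417 for Oas1a, so counting error adds more to the spread of Oas3 than to that of Oas1a.

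Oas3, the largest member, which joins 3 OAS units in a single protein and responds best to long double-stranded RNA, rose with the RPS percent. At 0% RPS the 5 mice had 0.934, 0.952, 1.33, 1.83 and 2.78 CPM. At 2% RPS they had 1.33, 1.68, 1.75, 2.02 and 2.69 CPM, and at 5% RPS 1.92, 2.52, 3.04, 4.28 and 6.63 CPM. At 10% RPS they had 1.25, 4.34, 4.39, 7.17 and 7.96 CPM. Thus 4 of 5 mice at 10% RPS and 3 of 5 at 5% RPS lay above the highest control, whereas mouse RS10_727 at 10% RPS lay below the control median of 1.33 CPM and the groups overlapped.

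The means of Oas3 were 1.57 ± 0.773 CPM at 0% RPS, 1.89 ± 0.510 at 2%, 3.68 ± 1.87 at 5% and 5.02 ± 2.66 at 10% RPS (SD, n = 5 each). The linear trend over RPS percent had a slope of 0.18 ± 0.04 on the log2 scale per percent of RPS (SE) and passed the edgeR test at an adjusted p of 0.0241. At 10% against 0% RPS the log2 fold change was 1.69 ± 0.42 (SE, 95% interval 0.82 to 2.56), a fold of 3.22, for which edgeR gave an adjusted p of 0.0861, missing the threshold, and DESeq2 0.00387, passing it. At 5% it was 1.23 ± 0.41 (0.36 to 2.10, edgeR adjusted p = 0.369) and at 2% 0.28 ± 0.42 (-0.61 to 1.16, edgeR adjusted p = 1). The interval of the difference at 10% RPS thus lay above 0, and after adjustment over all tested genes the difference passed by DESeq2 and not by edgeR.

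Single mice decided the edgeR calls of Oas3. Without mouse RS10_727 the edgeR adjusted p at 10% RPS was 0.0131, and without control mouse RS10_703, the highest control, it was 0.0360, both past the threshold, while the number of genes called over the whole table went from 7 to 188 without RS10_727. It stayed above the threshold when each of the other 18 mice was left out, up to 0.272 without control mouse RS10_708. The trend was lost, with edgeR adjusted p between 0.0552 and 0.0669, when mouse RS10_708, RS10_729, RS10_731 or RS10_784 was left out, and it was also lost at 0.0594 without the 3 mice whose labels disagree and at 0.187 with groups taken from the treatment label. DESeq2 called Oas3 at 10% RPS in all 20 fits that left out a mouse, with adjusted p up to 0.0313.

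**Figure D1:**
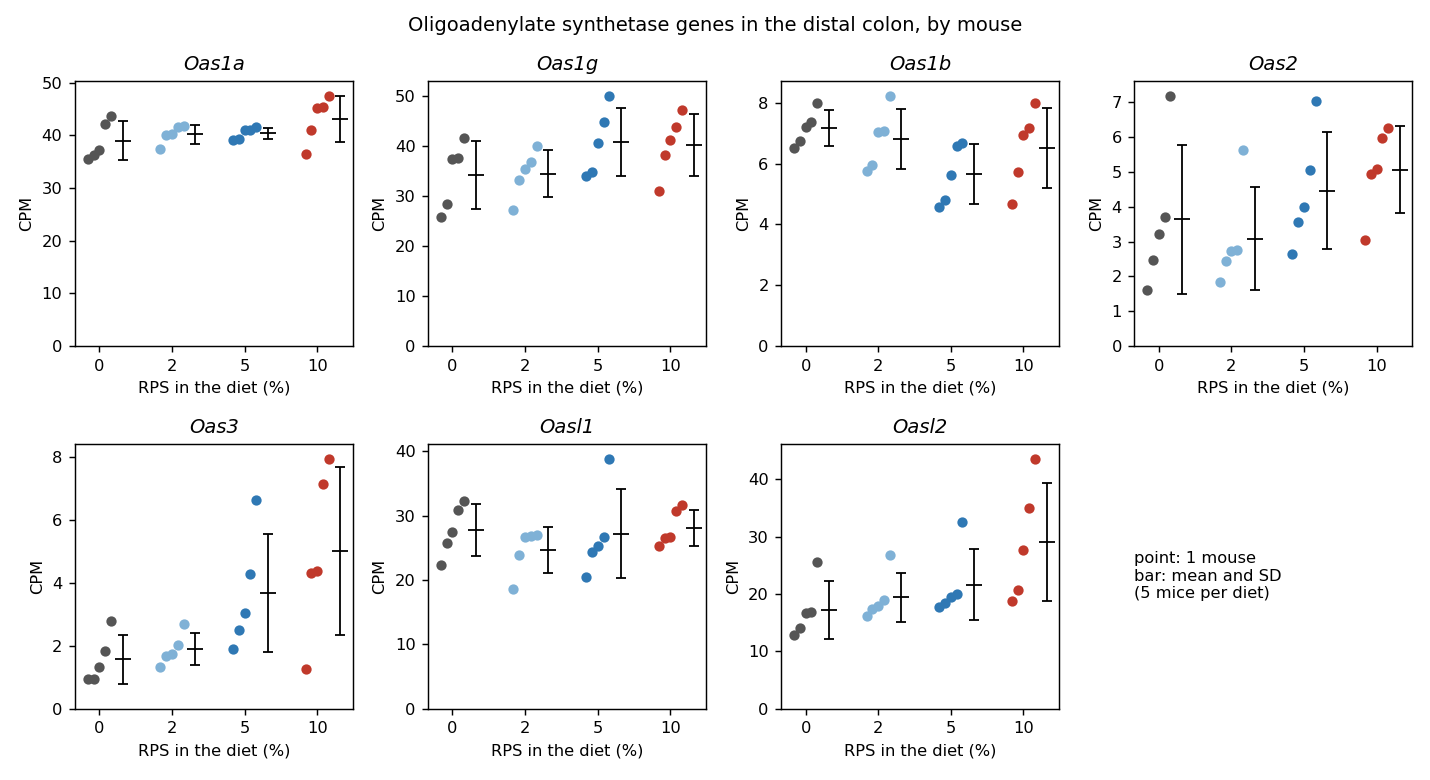
CPM (vertical axis, from 0) of the 7 family members against the percent of RPS in the diet (horizontal axis). Points are single mice, and the bars beside them give mean and SD of 5 mice per diet. In Oas3, 4 of the 5 mice at 10% RPS lie above the highest control at 2.78 CPM, while the fifth lies at 1.25 CPM.

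Oasl2, an OAS-like gene whose protein combines a synthetase with ubiquitin-like domains, had the second largest difference at 10% RPS. The 0% RPS mice had 12.9, 14.0, 16.7, 16.9 and 25.6 CPM. The mice at 2% RPS had 16.2, 17.3, 17.9, 18.9 and 26.7 CPM, and those at 5% RPS 17.7, 18.4, 19.4, 19.98 and 32.5 CPM. At 10% RPS the values were 18.7, 20.7, 27.7, 35.0 and 43.6 CPM. All 5 mice at 10% RPS lay above the control median and 3 of them above the highest control, mouse RS10_703, so that the groups overlapped through that mouse.

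The mean of Oasl2 was 17.2 ± 4.99 CPM in controls, reaching 29.1 ± 10.3 CPM on 10% RPS (SD, n = 5 each). The log2 fold change of 0.76 ± 0.24 (SE, 95% interval 0.26 to 1.26) was a fold of 1.69. Its edgeR adjusted p of 0.139 missed the threshold, and its DESeq2 adjusted p of 0.0352 passed it. The DESeq2 call was lost in 6 of the 20 fits that left out a mouse, at up to 0.190 without mouse RS10_731. The slope over RPS percent was 0.07 ± 0.02 on the log2 scale, for which edgeR gave an adjusted p of 0.0594 and DESeq2 0.0123. At 5 and 2% RPS the log2 fold changes were 0.33 ± 0.24 and 0.17 ± 0.24, with edgeR adjusted p of 0.690 and 1.

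Oas2, which joins 2 OAS units, did not pass the test at any RPS level. The control mice had 1.60, 2.47, 3.23, 3.70 and 7.18 CPM, and the mice at 10% RPS 3.05, 4.95, 5.10, 5.98 and 6.27 CPM. At 2% RPS the values were 1.85, 2.45, 2.72, 2.75 and 5.64 CPM and at 5% RPS 2.65, 3.57, 4.0, 5.07 and 7.04 CPM. The highest of all 20 mice was control mouse RS10_703, which lay above every mouse at 10% RPS, as did mouse RS10_719 at 5% RPS. The log2 fold change at 10% RPS was 0.49 ± 0.35 (SE, 95% interval -0.25 to 1.22, edgeR adjusted p = 0.544, DESeq2 adjusted p = 0.488), and without mouse RS10_703 it was 0.90 with an edgeR adjusted p of 0.143, against 0.30 and 0.808 without control mouse RS10_708. The interval leaves room for a fold of up to 2.33, so a change of the size seen in Oasl2 could not be told from none at this spread.

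Oas1a and Oas1g are near-identical synthetases of a single OAS unit, and Oas1a was the least variable member. Of the 50-base windows in the canonical transcript of Oas1a, 56.8% also occur in another gene, and for Oas1g 55.4%, with nearly all of these in the other of the pair. The reads were 50 bases long and how reads with several matches were assigned is not stated, so the split between the pair is uncertain. The share of windows found in another gene was 4.08% for Oas1b, 1.16% for Oas3 and 0 for Oas2, Oasl1 and Oasl2.

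Oas1a measured 35.5, 36.3, 37.2, 42.2 and 43.7 CPM in controls but 36.6, 41.0, 45.1, 45.5 and 47.5 CPM at 10% RPS. Of the mice at 10% RPS, 3 exceeded the highest control. The log2 fold change was 0.15 ± 0.07 (SE, 95% interval -0.01 to 0.30, edgeR adjusted p = 0.348), so any rise of Oas1a above a fold of 1.23 lay outside the interval. Oas1g measured 25.8, 28.4, 37.4, 37.6 and 41.6 CPM in controls, next to 30.9, 38.1, 41.3, 43.8 and 47.1 CPM at 10% RPS. Its log2 fold change was 0.24 ± 0.14 (-0.05 to 0.53, edgeR adjusted p = 0.432). At 5% RPS the log2 fold change of Oas1a was 0.05 ± 0.07 and that of Oas1g 0.26 ± 0.14, and at 2% RPS they were 0.05 ± 0.07 and 0.02 ± 0.14, with edgeR adjusted p of at least 0.597.

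Oas1b, the member with the truncated reading frame, had a lower mean than in controls at all 3 RPS levels. It measured 6.51, 6.74, 7.21, 7.37 and 8.0 CPM in controls but 4.57, 4.79, 5.63, 6.58 and 6.70 CPM at 5% RPS, where 3 of 5 mice lay below the lowest control. The log2 fold change at 5% RPS was -0.34 ± 0.15 (SE, 95% interval -0.65 to -0.04) with an unadjusted p of 0.0291 from edgeR and an edgeR adjusted p of 0.489. At 10% RPS it was -0.14 ± 0.15 and at 2% -0.07 ± 0.15, neither past the threshold (edgeR adjusted p of 0.712 and 1).

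Oasl1, the repressor of Irf7 translation, was at nearly the same level in every diet. Its mean was 27.8 ± 3.99 CPM at 0%, 24.6 ± 3.58 at 2%, 27.2 ± 6.93 at 5% and 28.1 ± 2.81 at 10% RPS (SD, n = 5 each). The log2 fold change at 10% RPS was 0.02 ± 0.14 (SE, 95% interval -0.27 to 0.31, edgeR adjusted p = 0.969), which bounds a rise at a fold of 1.24 and differs in sign when mouse RS10_707, RS10_708, RS10_727 or RS10_731 is left out. Mouse RS10_721 had the highest value at 38.8 CPM and mouse RS10_709 the lowest at 18.7 CPM. The library of mouse RS10_721 is the one with 4575 CPM of pancreas markers. Without it the log2 fold change at 5% RPS was -0.20, against -0.03 with all mice.

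Counted over the family, edgeR called 0 of 7 members at 10% against 0% RPS, where it called 0.0391% of all tested genes when adjusted p may not exceed 0.05 and the fold must reach 1.5. At 5 and at 2% RPS it called 0 members and 0% of all tested genes. The trend called 1 of 7 members, Oas3, against 2.1% of all tested genes, or 1.15% for rising trends alone. The test of any diet difference called 0 members and 0.0727% of all tested genes.

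At an unadjusted edgeR p under 0.05 the counts were as follows. At 10% RPS 2 members were higher, Oas3 and Oasl2, against 7.32% of all tested genes. At 5% RPS 1 member was higher, Oas3, against 4.69%, and 1 was lower, Oas1b, against 4.5%. At 2% RPS the count was 0 members against 1.41% of all tested genes in either direction. Rising trends numbered 3, in Oas1a, Oas3 and Oasl2, against 9%, and 2 members, Oas3 and Oasl2, passed for any diet difference against 10.6%.

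DESeq2 called 2 members as higher at 10% RPS, Oas3 and Oasl2, against 0.823% of the genes to which it gave an adjusted p. It called 0 members at 5% RPS against 0.141% of genes called higher, and 0 at 2% RPS against 0.00386%. Its rising trends included Oas3 and Oasl2, against 3.22% of genes. In none of the 7 members did all 5 mice at 10% RPS lie above all 5 control mice, a pattern seen in 1.13% of all tested genes. The 3 comparisons share the control mice and are therefore not independent.

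**Figure D2:**
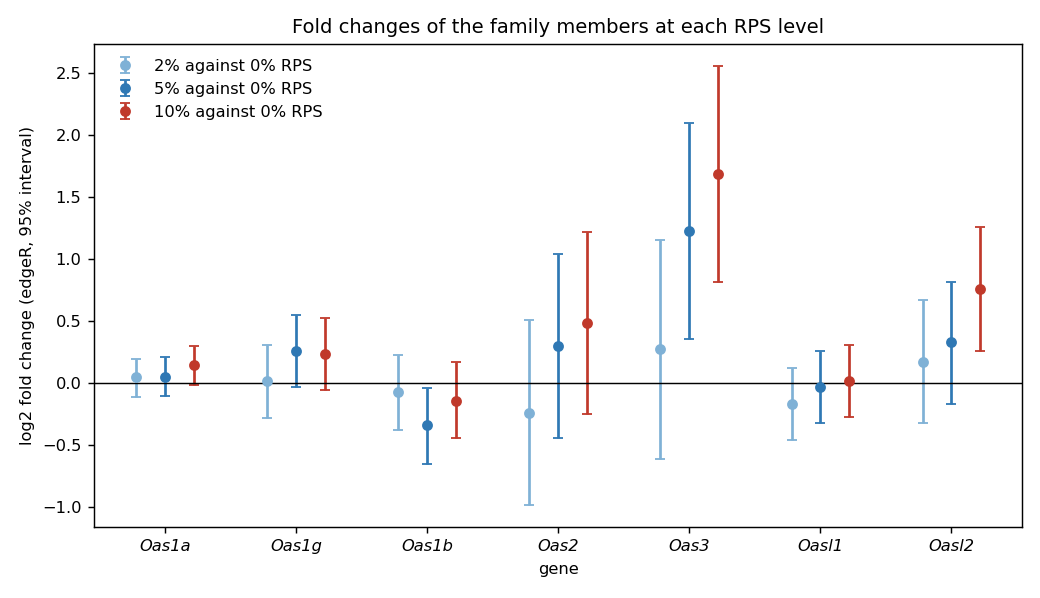
Log2 fold change of each member (vertical axis) at 2, 5 and 10% RPS against 0% RPS, with 95% intervals from edgeR, 5 mice per diet. The interval of Oas3 at 10% RPS, 0.82 to 2.56, and that of Oasl2, 0.26 to 1.26, lie above 0, and those of the other 5 members at 10% RPS include 0.

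The median log2 fold change of the 7 members was 0.24 at 10% RPS, 0.26 at 5% and 0.02 at 2%, against a median of -0.01, -0.01 and 0 over all tested genes. It was positive in 6 of 7 members at 10%, 5 of 7 at 5% and 4 of 7 at 2% RPS. Summed per kb, the family measured 60.9 ± 6.96 CPM per kb at 0% RPS and 70.9 ± 9.06 at 10% RPS (SD, n = 5 each). Oas3 supplied 0.542 ± 0.261% of that sum at 0% RPS and 1.44 ± 0.664% at 10% RPS, whereas Oas1a and Oas1g together supplied the largest part at every diet. The level of Oas3 per kb was 1.65 ± 0.873% of that of Oas1a at 0% RPS and 4.61 ± 2.35% at 10% RPS.

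Across mice the members did not move as a single block. Of the 21 pairs of members, 6 were correlated at an adjusted permutation p of at most 0.05 over the 20 mice (100000 permutations, two-sided, log2 CPM, Benjamini-Hochberg over the pairs). Mice were permuted across all diets, so this p also takes in differences between diets that a pair shares, and r within diets has no p. The share of pairs that pass, or that are positive within diets, over all tested genes was not determined. Oas3 and Oasl2 had the strongest relation, with Pearson r = 0.87 (permutation p = 1e-05, the smallest these permutations can give, adjusted p = 0.00021) and Spearman rho = 0.84 (permutation p = 1e-05). Without mice RS10_729 and RS10_731, the farthest from the median of Oas3, r was 0.80, and after subtraction of each diet's mean it was 0.84. Oas2 and Oas3 had r = 0.79 (permutation p = 7e-05, adjusted p = 0.00063) and rho = 0.80 (permutation p = 9e-05), with r = 0.81 without mice RS10_703 and RS10_708 and 0.76 within diets. Oas2 and Oasl2 had r = 0.78 (permutation p = 9e-05, adjusted p = 0.00063) and rho = 0.76 (permutation p = 0.00019), with r = 0.74 without the same mice and 0.75 within diets. Oas2, Oas3 and Oasl2 thus varied together from mouse to mouse within diets as well as over all mice. Within diets they were not alone, since 18 of the 21 pairs had a positive r. There Oas1b had r = 0.61 with Oas3, 0.47 with Oas2 and 0.47 with Oasl2. Over all mice these were 0.10, 0.18 and 0.17, none past the adjusted threshold.

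Oas1a and Oas1g, which share sequence, had r = 0.65 (permutation p = 0.00213, adjusted p = 0.0112) and rho = 0.61 (permutation p = 0.00489), with r = 0.49 without mice RS10_708 and RS10_731. Oas3 was also related to Oas1a with r = 0.60 (permutation p = 0.00508, adjusted p = 0.0213) and rho = 0.52 (permutation p = 0.0205), and to Oas1g with r = 0.56 (permutation p = 0.0108, adjusted p = 0.0379) and rho = 0.58 (permutation p = 0.00835). Within diets these were 0.48 and 0.37, and without the 2 farthest mice they were 0.41 and 0.55. Oasl1 was the least related member, with r between -0.04 and 0.23 against the other 6, none past the adjusted threshold. Mouse RS10_719 (5% RPS) showed the difference between members plainly, with 6.63 CPM of Oas3, the highest at its diet, and 20.5 CPM of Oasl1, the lowest at its diet.

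**Figure D3:**
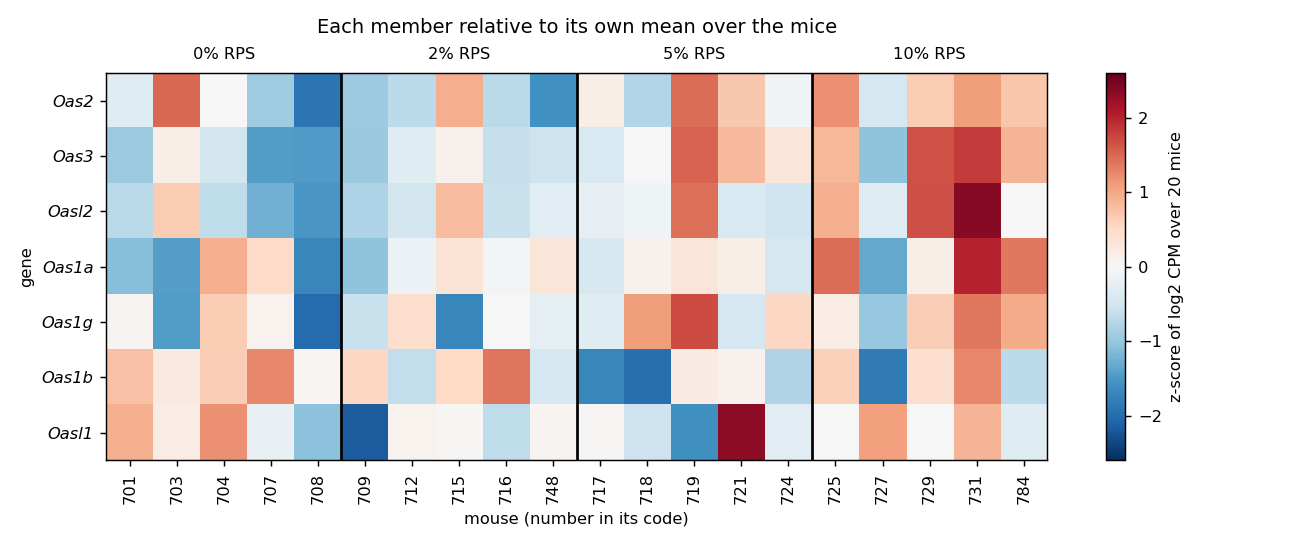
Level of each member (rows) in each of the 20 mice (columns, grouped by diet) as a z-score of log2 CPM over the mice. Oas2, Oas3 and Oasl2 are all high in mice RS10_719 and RS10_731. The highest mouse of Oas2, control mouse RS10_703 with a z-score of 1.5, has 0.18 for Oas3 and 0.67 for Oasl2. In mouse RS10_729 the z-score is 0.65 for Oas2, 1.65 for Oas3 and 1.67 for Oasl2. Oasl1 has its highest value in mouse RS10_721 and its lowest in mouse RS10_709.

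The members that varied together also followed the markers of plasma cells, the antibody-secreting cells of the mucosa. The 5 markers (Jchain, Mzb1, Igha, Sdc1 and Tnfrsf17) were all detected in every library and summed to between 623 and 4102 CPM at 0% RPS, 937 and 2904 at 2%, 1127 and 2395 at 5% and 1955 and 4359 CPM at 10% RPS. Their median log2 fold change at 10% RPS was 1.10, and 0 of 5 were called by edgeR. In each of the 4 diets the mouse with the highest sum, RS10_703, RS10_715, RS10_719 and RS10_725, was also the mouse with the most Oas2. Over the 20 mice the sum was correlated with Oas2 at r = 0.81 (permutation p = 2e-05, adjusted p = 0.00091) and rho = 0.77 (permutation p = 0.00016), with Oasl2 at r = 0.80 (permutation p = 2e-05, adjusted p = 0.00091) and rho = 0.87 (permutation p = 1e-05), and with Oas3 at r = 0.69 (permutation p = 0.00077, adjusted p = 0.0146) and rho = 0.69 (permutation p = 0.00094). Without mice RS10_708 and RS10_725 r was 0.75, 0.76 and 0.63, and within diets 0.79, 0.69 and 0.52. The same 4 mice also had the highest sum of the 5 T cell markers in their diets. That T cell sum had r = 0.55 with Oas2 (permutation p = 0.0126, adjusted p = 0.0794) and 0.63 within diets. The highest mouse of each diet thus does not separate plasma cell from T cell markers.

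For the other 4 members r with the plasma cell sum lay between 0.01 and 0.32, with adjusted permutation p of at least 0.342. Here too mice were permuted across all diets, so p takes in shared differences between diets, and r within diets has no p. The adjustment covered 91 relations, 7 members against 13 marker lists, of which 8 passed for r. The other 5 were Oas1g with neutrophil markers (r = 0.72, permutation p = 0.00033, adjusted p = 0.0100, rho = 0.72, permutation p = 0.00045, adjusted p = 0.0136, within diets r = 0.64), although Ly6g was the only one of these 4 markers to pass the filter, and Oas2 with the posterior Hox genes (r = -0.68, permutation p = 0.0008, adjusted p = 0.0146, rho = -0.68, permutation p = 0.00116, adjusted p = 0.0211, within diets r = -0.59). The last 3 passed for r but not for rho, namely Oas2 with B cell markers (r = 0.59, rho = 0.47), Oas1g with macrophage markers (r = -0.64, rho = -0.57) and Oas3 with the posterior Hox genes (r = -0.61, rho = -0.61). Their permutation p for r were 0.00209, 0.00198 and 0.0037 (adjusted 0.0272, 0.0272 and 0.0421), their adjusted permutation p for rho 0.208, 0.0923 and 0.0635, and their r within diets 0.59, -0.58 and -0.32. Leaving out the 2 mice farthest from the median of the markers gave r = 0.59, -0.64, 0.48, -0.35 and -0.56 in the order of the 5 relations. Oasl2 with the posterior Hox genes passed for rho but not for r (rho = -0.65, permutation p = 0.00232, adjusted p = 0.0352). Its r was -0.46 (permutation p = 0.0418, adjusted p = 0.146), and -0.21 within diets. In these bulk samples fewer cells of a type and less RNA per cell cannot be told apart, and the part of cell composition in the differences between diets was not tested.

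**Figure D4:**
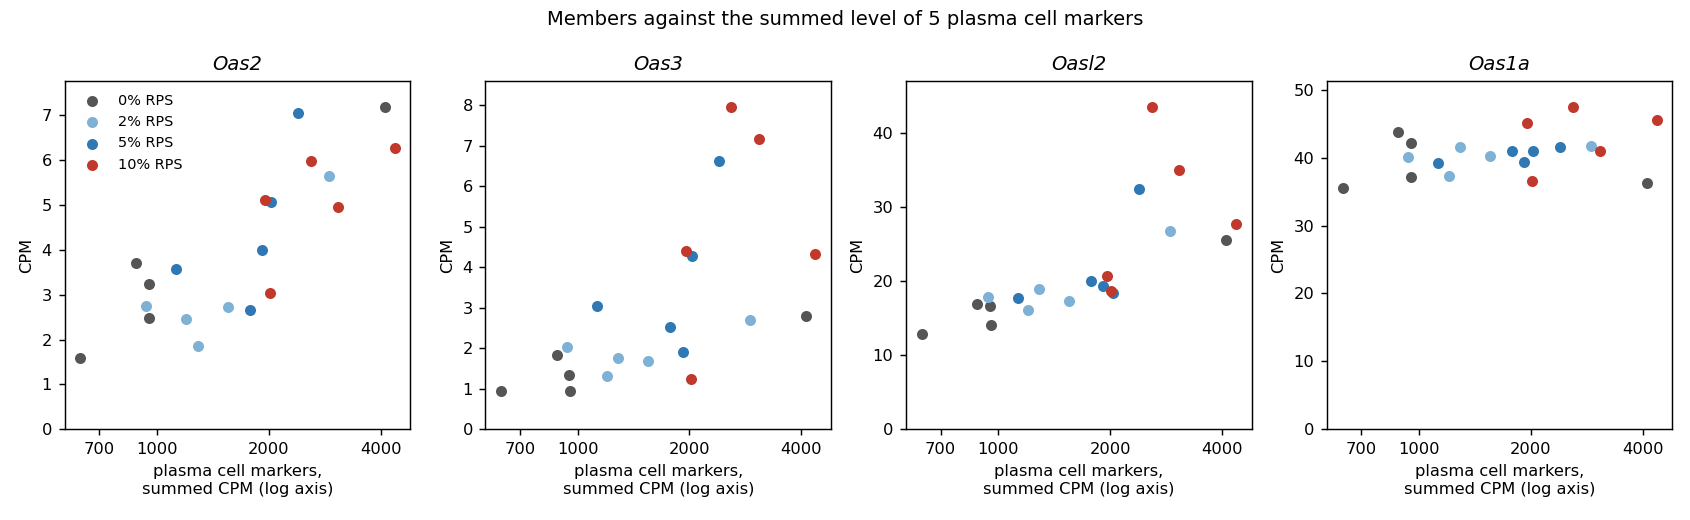
CPM of Oas2, Oas3, Oasl2 and Oas1a (vertical axes, from 0) against the summed CPM of 5 plasma cell markers (horizontal log axis) in each of the 20 mice, coloured by diet. Oas2 reaches 7.18 CPM in control mouse RS10_703, whose marker sum is 4102 CPM, while Oas1a stays between 35.5 and 47.5 CPM over the whole range.

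The 5 other Oas1 genes of the locus, Oas1c to Oas1f and Oas1h, were at low levels. Oas1h had a mean of 2.78 ± 0.830 CPM per kb over the 20 mice, Oas1c 2.03 ± 0.541 and Oas1d 0.207 ± 0.0634 (SD, n = 20), and these 3 passed the filter. Oas1e had at most 3 counts and Oas1f at most 4 counts in any library. The log2 fold change at 10% RPS was -0.32 ± 0.23 for Oas1c, 0.07 ± 0.32 for Oas1d and 0.04 ± 0.26 for Oas1h, with edgeR adjusted p of at least 0.545. Oas1c, whose start faces that of Oas1b, contains the same ISRE letters in its promoter window, and it was lower at 10% RPS in its mean, 4.02 ± 0.644 against 5.01 ± 1.61 CPM.

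Among the other genes of the 2-5A pathway, Pde12, which degrades 2-5A, measured 17.6 ± 2.40 CPM in controls and 23.8 ± 3.40 CPM under 10% RPS (SD, n = 5 each), a log2 fold change of 0.43 ± 0.14 (SE) with an edgeR adjusted p of 0.154 and an edgeR adjusted trend p of 0.0710. Abce1, a ribosome recycling factor, measured 67.8 ± 12.2 and 85.5 ± 9.96 CPM, a log2 fold change of 0.33 ± 0.13 with an edgeR adjusted p of 0.224. None of the 4 listed genes of the 2-5A pathway was called at any RPS level or for the trend by edgeR. At an unadjusted edgeR p under 0.05, 2 were higher at 10% RPS, beside 7.32% of all tested genes. DESeq2 gave 1 rising trend, beside 3.22% of genes.

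Upstream, 6 of 7 interferon transcription factors had positive log2 fold changes at 10% RPS, and Irf3 had -0.07. Of these 7, edgeR called 1 as higher at 10% RPS, beside 0.0391% of all tested genes called in either direction. It called 2 for a rising trend, beside 1.15% of all tested genes. At an unadjusted edgeR p under 0.05, 6 were higher at 10% RPS, beside 7.32% of all tested genes. Irf1 averaged 134 ± 16.2 CPM in controls, next to 209 ± 25.4 CPM under 10% RPS, a log2 fold change of 0.64 ± 0.10 (edgeR adjusted p = 0.00929). Irf7, the target of Oasl1 and a driver of interferon alpha genes, had an adjusted trend p of 0.0489 from edgeR and 0.0156 from DESeq2, both past the threshold, and 0.0511 from limma-voom, which missed it. With groups taken from the treatment label edgeR called 0 genes of the whole table at 10% RPS or for the trend, so these calls and those of the interferon-stimulated genes were lost, and without the 3 mice whose labels disagree it called 0 genes at 10% RPS. The means of Irf7 were 45.8 ± 6.97 CPM in controls and 59.4 ± 5.23 CPM under 10% RPS. Stat2 and Irf9, of the ISRE-binding complex, did not pass, with log2 fold changes at 10% RPS of 0.35 ± 0.12 and 0.33 ± 0.12 and edgeR adjusted p of 0.156 and 0.205.

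All 26 interferon-stimulated genes outside the family were tested, and edgeR called 0 at 10% RPS. By edgeR 4 had a rising trend, namely Mx1, Cxcl10, Isg15 and Samhd1, beside 1.15% of all tested genes. At an unadjusted edgeR p under 0.05, 12 were higher at 10% RPS, beside 7.32% of all tested genes. By the same measure 1 was lower, and the share of all tested genes that were lower was not determined. DESeq2 called 4 as higher, beside 0.823% of the genes to which it gave an adjusted p. Mx1 averaged 3.51 ± 1.09 CPM in controls and 8.03 ± 2.77 CPM under 10% RPS, with an edgeR adjusted trend p of 0.0191. Cxcl10, a chemokine that attracts T cells, measured 0.942 ± 0.383 and 2.32 ± 1.09 CPM in the same groups, Isg15, a ubiquitin-like modifier, 3.22 ± 0.991 and 6.50 ± 3.33 CPM, and Samhd1, which depletes nucleotides, 114 ± 8.49 and 151 ± 20.3 CPM. Their edgeR adjusted trend p were 0.0335, 0.0434 and 0.0491. With limma-voom the trend of Mx1 was called (adjusted p = 0.0170), and those of Cxcl10, Isg15 and Samhd1 were lost at 0.0579, 0.0574 and 0.0526. The median log2 fold change of the 26 genes was 0.40 at 10% RPS against -0.01 over all tested genes, with 24 of 26 positive, beside 0.24 for the 7 OAS members.

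Of 9 double-stranded RNA sensors and effectors, 0 were called by edgeR in any comparison. At an unadjusted edgeR p under 0.05, 3 were higher at 10% RPS, beside 7.32% of all tested genes. DESeq2 called 1 as higher at 10% RPS, beside 0.823% of the genes to which it gave an adjusted p. Of 9 interferon receptors and kinases, 0 were called by either tool, with a median log2 fold change of 0.02. Of Cgas, a nucleotidyltransferase related to the OAS enzymes, and its adaptor Sting1, edgeR called neither, with an adjusted trend p of 0.0502 for Cgas. DESeq2 called Cgas at 10% RPS (fold 1.70, DESeq2 adjusted p = 0.0296) and for the trend (DESeq2 adjusted p = 0.00964), and limma-voom called its trend (limma adjusted p = 0.0480). Of 9 interferon genes, 2 were in the table, Ifnl2 and Ifng, and neither passed the filter on low counts, so a change of the interferons themselves was not detectable at this depth.

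**Figure D5:**
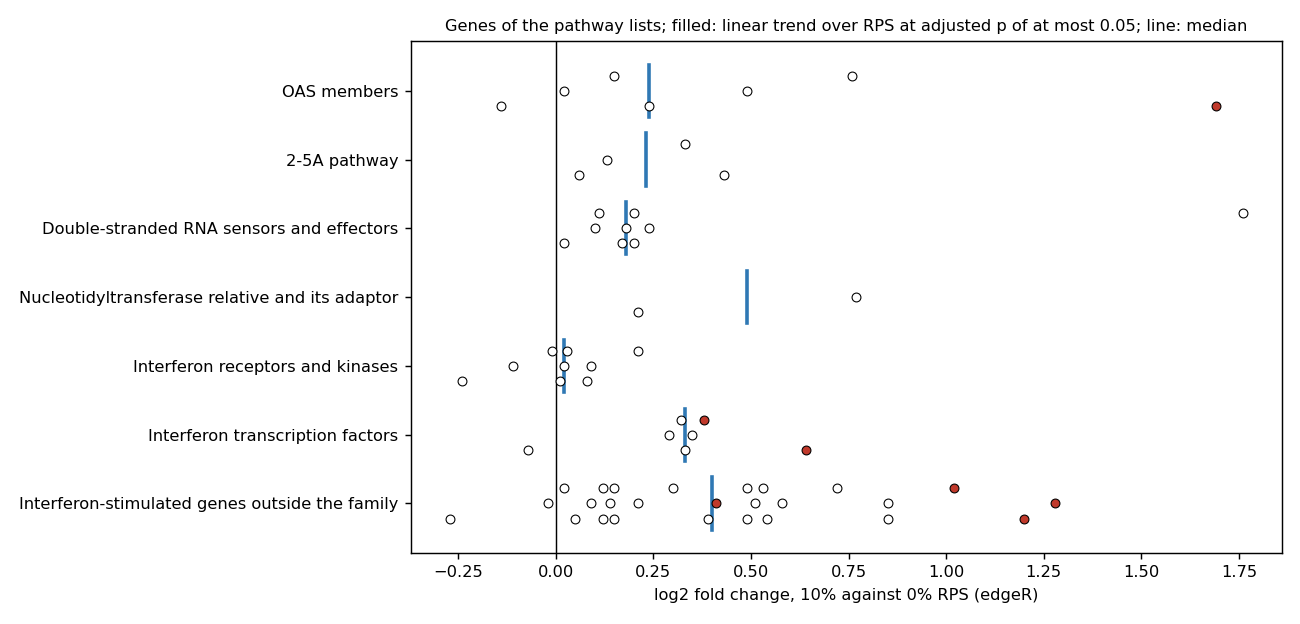
Log2 fold change at 10% against 0% RPS (horizontal axis) of each tested gene of the family and of 6 pathway lists (rows). Each point is a gene, filled points have a linear trend over RPS at an edgeR adjusted p of at most 0.05, and vertical lines are medians. The median lies at 0.24 for the OAS members and 0.40 for the other interferon-stimulated genes, and at 0.02 for receptors and kinases.

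The genes whose pattern over the 20 mice was most like that of the family were ranked by Pearson r with the mean z-score of the 7 members, as a description without a test. The first 8 were Stat2 (r = 0.87), Lyn (0.85), Zfp280b (0.84), Tmprss4 (0.84), Sh3bgrl2 (0.82), Acnat1 (0.82), H2ac6 (0.82) and the unnamed gene ENSMUSG00000112599 (0.82). Stat2 is a subunit of the ISRE-binding complex and Lyn a kinase of B and myeloid cells. After subtraction of diet means 6 of these 8 stayed among the first 8, Stat2 among them. With Spearman's rho 2 did, Lyn and Zfp280b, and Stat2 (rho = 0.76) did not. For Oas3 alone the first were Zfp280b (r = 0.88), Gm5431 (0.87), Stat2 (0.86), Arl1 (0.86), Trappc10 (0.86), Ldah (0.85), Parp12 (0.85) and Pls1 (0.85), so Stat2 and Zfp280b were in both lists. Of the 8 genes for Oas3, 2 stayed among the first 8 after subtraction of diet means, Zfp280b and Stat2. With Spearman's rho 3 stayed, and Stat2 (rho = 0.85) was not among them.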

How the data were processed

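The authors removed low-quality bases and ambiguous reads from single-end reads of 50 bases, mapped the rest to GRCm39 in CLC Genomics Workbench and deposited raw read counts, a column per mouse and a row per gene. The kit was stranded. How strand and multiply matching reads were handled, and which annotation was used, are not given in the sources used here. Of 26619 identifiers, 26338 had symbols in GENCODE vM39.

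Groups came from the description label. The members and the gene and marker lists were chosen with earlier results of these data known. Members are named whatever their values. A list gene is named if it is Pde12, Abce1, Stat2, Irf9, Irf7 or Isg15, or called by edgeR for a diet or a trend, and Oas1 genes outside the rule are named. Cgas and Sting1, Ifnl2 and Ifng are named beyond this rule, chosen after their values were seen. Other genes that the rule named are not reported here.

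Analysis used R 4.3.3 and edgeR 4.0.16, with filterByExpr (minimum count 10, leaving 17893 genes) and TMM scaling. The quasi-likelihood F-test was fitted over all 4 diets with 20 mice, and p was adjusted by Benjamini and Hochberg over the whole table. Calls needed an adjusted p no larger than 0.05 and, except for the trend and for any diet difference, a fold no smaller than 1.5. CPM is the count per megacount of the TMM-scaled library, with a prior count of 2 on the log2 scale. SE is the log2 fold change divided by the square root of F. DESeq2 1.42.0, limma-voom (limma 3.58.1), RLE scaling, no filter, no fold threshold, fits of 2 diets only, the treatment label, the omission of 3 mice and of each mouse were alternatives, and thinning to the smallest total, DESeq2 without each mouse and likeness to Oas3 were added after the data were seen. The independent filtering of DESeq2 was first run at a level of 0.05 and was set to the default of 0.1 after those values had been seen and found to differ from an earlier count of these data. Both levels called the same members. The procedure was tested on simulated data in which every gene had the same relative spread between mice. That test therefore does not cover members as variable as Oas3. No pair of mice within a diet looked like a library deposited again, since a chi-square statistic per degree of freedom over genes was at least 9.1.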

Additional observations from a re-analysis of the deposited data

Results flagged for a closer look

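In 28 groups of 5 mice, the 7 members in 4 diets, the highest and the lowest value were compared with the rest by Dixon's gap test, of which chance flags about 1.4. Mouse RS10_715 (2% RPS) stood apart in Oas2, with 5.64 CPM against 2.75 CPM in the next mouse, and in Oasl2, with 26.7 CPM against 18.9 CPM. Its plasma cell markers summed to 2904 CPM, the highest at its diet, and its 2 haemoglobin genes to 243 CPM against no more than 61.6 CPM elsewhere. Mouse RS10_719 (5% RPS) stood apart in Oasl2, with 32.5 CPM against 19.98 CPM, and had the highest plasma cell sum at its diet, 2395 CPM. The part of either in these values was not tested.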

How the results depend on the processing

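The count of members called at 10% RPS was 0 by edgeR and 2 (Oas3 and Oasl2) by DESeq2, and when each mouse was left out it was 0 to 1 by edgeR, with Oas3 called without mouse RS10_703 or RS10_727, and 1 to 2 by DESeq2, which called Oas3 in all 20 fits and Oasl2 in 14. At 5 and 2% RPS it was 0 in all of these fits except DESeq2 without mouse RS10_727, which called Oas3 at 5% RPS (adjusted p = 0.0471). The count for the trend was 1 (Oas3) by edgeR, 2 (Oas3 and Oasl2) by DESeq2 and with thinned libraries, 0 with groups by the treatment label and without the 3 mice with disagreeing labels, and 0 to 2 by edgeR when each mouse was left out. For any diet difference it was 0, but 1 (Oas3) by DESeq2 and 0 to 1 by edgeR when each mouse was left out. The direction of uncalled members turned only when a mouse was left out, with log2 fold changes of -0.05 to 0.08 for Oasl1 at 10% RPS, -0.20 to 0.05 for Oasl1 at 5%, -0.07 to 0.10 for Oas1g at 2% and -0.57 to 0.16 for Oas2 at 2% RPS. The median log2 fold change of all tested genes stayed between -0.03 and 0 under every alternative. DESeq2 with its independent filtering at 0.05 in place of 0.1 called the same members in each comparison, and 210 genes in place of 211 at 10% RPS. The cause of these differences was not tested.

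Over all genes, 7 were called at 10% RPS, against 211 by DESeq2, 13 with RLE, 12 with thinned libraries or no fold threshold, 3 from pairwise fits and 0 with the treatment label or without the 3 mice. At 5% the count was 0, against 29 by DESeq2 and 1 from pairwise fits, and at 2% 0 against 1 by DESeq2. Trend genes numbered 375, against 973 by DESeq2, 56 without the 3 mice and 0 with the treatment label. For any diet difference the count was 13, against 353 by DESeq2, 8 by limma-voom and with RLE, and 0 with the treatment label and without the 3 mice. Leaving out a mouse gave 5 (without RS10_784) to 188 (without RS10_727) genes at 10% RPS, 24 to 1148 trend genes (without the same mice) and 0 (without RS10_725) to 42 (without RS10_727) genes for any diet difference. No paired analysis was possible because mouse numbers are unique to an animal. Oas3 rests on 23 to 205 counts a library.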
